A study of Nematostella vectensis with 4 samples.

Results

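The mesentery and the outer body wall of the starlet sea anemone Nematostella vectensis were compared through 1 single-cell RNA library each. All barcodes with at least 300 UMIs (unique molecular identifiers, each standing for 1 captured RNA molecule) were kept, which gave 1357 mesentery and 1652 body wall barcodes, 3009 of the 7112 kept in the study's 4 libraries. The other libraries came from the tentacle and the pharynx and appear only where a value there bears on a gene described. Both groups were sub-adult polyps of 5 months, with no strain, genotype or treatment given in the labels, whose pieces were dissociated in TrypLE enzyme and run on the 10x Genomics version 2 chemistry. The labels do not say how many polyps were pooled. UMIs were summed per gene over the kept barcodes and expressed as counts per 1000000 UMIs (CPM).

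An anemone polyp is a sac of epidermis and gastrodermis around a layer of matrix, the mesoglea. The mesenteries are folds of the inner layer that hang into the gut cavity. They carry the retractor muscles, the gonads and a filament whose gland cells secrete digestive enzymes, while the body wall holds the outer epidermis, the mesoglea and a sheet of muscle in its inner layer. The gene names used here are the deposited ones, and most name the best-matching protein of another species rather than a Nematostella protein. A role given beside such a name is the role known in that species.

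With 1 library a side there are no replicates, so no test between tissues was possible and the 95% intervals (exact Poisson or Clopper-Pearson) cover counting error only. UMIs remove duplicate copies but not differences between animals, dissections or droplet runs. A count of 0 was set to 3 UMIs, 1.92 CPM in the mesentery and 1.50 CPM in the body wall, and the ratio is then a lower bound. The kept barcodes held 1563722 mesentery UMIs (median 542 per barcode, 300 to 61577) and 2003883 body wall UMIs (median 766, 300 to 10216). The 1% of barcodes with the most UMIs held 16.7% of the mesentery's UMIs and 5.83% of the body wall's. The libraries shared 1 kept barcode and 78 of all 7000 deposited barcodes each. No doublet caller was run, so a barcode may hold RNA of 2 cells or more. Sums per tissue cannot tell more cells of a type from more RNA per cell, and shares of barcodes with a UMI are therefore given too.

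Of 3195 gene models with at least 50 UMIs in either tissue, 327 (10.2%) stood at least 4-fold higher in the mesentery and 425 (13.3%) at least 4-fold higher in the body wall. Models whose names matched a set of toxin name patterns were left out of both counts. Most of the transcriptome was shared: 1868 models (58.5%) lay within 2-fold and carried 74.5% of mesentery UMIs and 75.1% of body wall UMIs. The median log2 ratio of mesentery over body wall, with 10 CPM added to both, was -0.06 over all models tested. The mesentery-high genes held 9.40% of the UMIs of their own tissue and 0.335% of the body wall's. The body-wall-high genes held 9.84% of their own tissue's UMIs and 0.596% of the mesentery's. Of the mesentery set, 134 models had 0 UMIs in the body wall, and 107 of the body wall set had 0 in the mesentery. The sets differed in how widely their genes were found, before any thinning. The median mesentery-high gene had a UMI in 3.10% of mesentery barcodes, and 242 of the 327 were in under 5% of them. The median body-wall-high gene was in 6.30% of body wall barcodes, and 64 of the 425 were in over 20%, against 9 of the 327 in the mesentery.

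**Figure D1:**
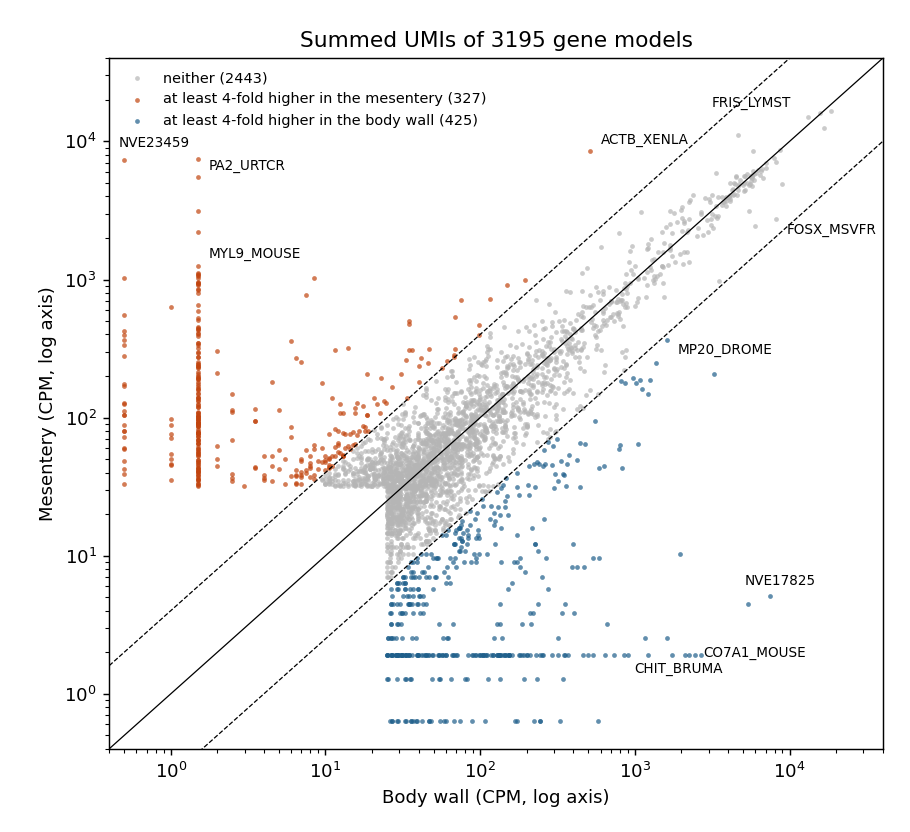
Each point is 1 of 3195 gene models, with CPM in the body wall on the x axis and in the mesentery on the y axis, both log axes. The solid line marks equal levels and the dashed lines 4-fold. Models with 0 UMIs are drawn at the 3-UMI limit and form the straight columns and rows at 1.50 and 1.92 CPM, and models with 1 or 2 UMIs lie at their own value. Orange marks the 327 mesentery-high and blue the 425 body-wall-high models.

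Models next to the 4-fold line show what the rule admits. The 4 mesentery models just inside were GA2L1_MOUSE (NVE12302), H2A_ACRFO (NVE18284), NVE23043 and NVE10357, at 4.04 to 4.07-fold. The 4 just outside, NVE24213 KI13A_HUMAN, NVE10207 STS_RAT, NVE3972 and NVE24290, stood at 3.8 to 3.97-fold. In the other direction NVE9757, NVE5926, SURF6_TAKRU (NVE13664) and LONF3_MOUSE (NVE223) were inside at 4.01 to 4.05-fold, and CC14A_MOUSE (NVE2773), NVE8124, NVE24488 and NVE7859 outside at 3.93 to 3.97-fold. Their counting intervals all span 4, so membership at this edge was within counting error.

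The mesentery stood apart first by transcripts of protease and lipase families that include digestive enzymes. The lists rest on deposited names, and whether the models serve digestion was not tested. The digestive carbohydrase list went the other way, with 0.0326% of mesentery and 0.217% of body wall UMIs, 6.64-fold (6.06 to 7.29) higher in the body wall. Without its top member CHIT_BRUMA (NVE9103) it took 0.0326% and 0.00499%. Its amylase or glucosidase family was near level, at 1.06 (0.670 to 1.66). Proteases of these families took 1.12% of mesentery UMIs and 0.158% of body wall UMIs, a 7.06-fold difference (6.8 to 7.34). A single mesentery barcode held 20.9% of that library's protease and lipase UMIs, and the protease ratio without it alone was not computed. Of 37 protease models tested, 24 (64.9%) were mesentery-high and 7 (18.9%) body-wall-high, with a median log2 ratio of 3.12. Over all tested models these shares were 10.2% and 13.3%. The families differed. All 5 carboxypeptidases and 10 of 13 chymotrypsin or elastase models were mesentery-high, while the 16 astacin and hatching enzyme models split into 7 and 4. Among the chymotrypsin-like models, CTR2_CANFA (NVE14238) had 1671 mesentery UMIs (1069 CPM) and 0 in the body wall, at least 714-fold higher. CTRA_BOVIN (NVE11590) had 1598 mesentery UMIs and 1 in the body wall, 2048-fold (367 to 80934). CTRB1_MOUSE (NVE9071) had 1468 UMIs and PLMN_MOUSE (NVE21873), named after the blood protease plasminogen, 1456, both against 0. The astacin-like metalloproteases HE_PARLI (NVE21084), named after a sea urchin hatching enzyme, and NAS4_CAEEL (NVE24828) had 1747 and 1324 UMIs against 0. CPP1_ACRMI (NVE16289), named after a coral CUB and peptidase domain protein, had 1481 against 0.

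The body wall had proteases of its own from the same families. MEP1B_RAT (NVE2965), an astacin-like model named after the membrane protease meprin, had 588 body wall UMIs (293 CPM) and 0 in the mesentery, at least 153-fold higher. NAS15_CAEEL (NVE26069), another astacin, had 284 against 0. The protease model with the most UMIs over both libraries, the hatching-enzyme-like HE_HEMPU (NVE1814), was shared, with 823 CPM in the mesentery and 360.3 CPM in the body wall, 2.28-fold (2.08 to 2.51). The tissue difference was therefore one of which models were present as well as of their sum.

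Among lipid-cleaving enzymes the difference rested on models of 1 name. The lipase list took 1.66% of mesentery UMIs and 0.0441% of body wall UMIs, 37.5-fold (35.1 to 40.2). Of its 11 tested models, 6 (54.5%) were mesentery-high and 2 (18.2%) body-wall-high (median log2 1.61), against 10.2% and 13.3% of all tested models. Without the 5 models named PA2_URTCR after a sea anemone phospholipase A2, the list took 0.0412% of mesentery UMIs and 0.0433% of body wall UMIs, a ratio of 0.951 (0.857 to 1.05), and the pancreatic or endothelial lipases alone gave 0.846 (0.732 to 0.976). Phospholipases A2 cleave membrane phospholipids and are known in animals both as digestive enzymes and as parts of venoms. The PA2_URTCR models were kept because their deposited name did not match the name patterns used to leave out toxins. Whether they encode toxins or serve digestion was not tested. The 3 with the most UMIs had 11600 (NVE18269), 8616 (NVE18268) and 4928 (NVE10958) mesentery UMIs and 0 in the body wall, at least 4955-fold higher for the first, at least 3680.4-fold for the second and at least 2105-fold for the last. Reads of such like-named models could be split between them by the counting, so their single values are uncertain. Another phospholipase A2 model, PA2_ADAPA (NVE908), had 20 and 153 UMIs and was body-wall-high by 5.97-fold (3.73 to 10.0). The endothelial-lipase-like models LIPG_HUMAN (NVE22145) and LIPG_MOUSE (NVE24309) had 111 and 5.12 CPM in the mesentery and 140.2 and 36.9 CPM in the body wall. Of these, LIPG_MOUSE was body-wall-high by 7.22-fold (3.48 to 17.3).

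Few barcodes held most of these enzyme transcripts. In 60 of 1357 mesentery barcodes at least 10% of UMIs came from the protease and lipase lists, and they held 85.5% of all such UMIs. Another 7 barcodes lay between 5 and 10%. In the body wall no barcode reached 10%, and 4 reached 5%. The median mesentery barcode held 0.498% and the median body wall barcode 0.121%. At least 50% of the UMIs of CTR2_CANFA (NVE14238), CTRA_BOVIN (NVE11590), PLMN_MOUSE (NVE21873), NAS4_CAEEL (NVE24828), CPP1_ACRMI (NVE16289) and HE_PARLI (NVE21084) each lay in 1 barcode. For the 3 PA2_URTCR models with the most UMIs, 4 barcodes each held that share. Without the 5 models named PA2_URTCR, an alternative chosen after the data were seen, 30 mesentery barcodes and no body wall barcode reached 10%, and the 30 held 78.8% of the remaining enzyme UMIs. The mesentery barcode ranked 9th by UMIs held 12121 UMIs over only 330 genes, and 74.9% of them came from these lists. These 9075 UMIs were 20.9% of all mesentery UMIs of the protease and lipase lists. Without the PA2_URTCR models the highest share in any mesentery barcode was 65.2%.

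**Figure D2:**
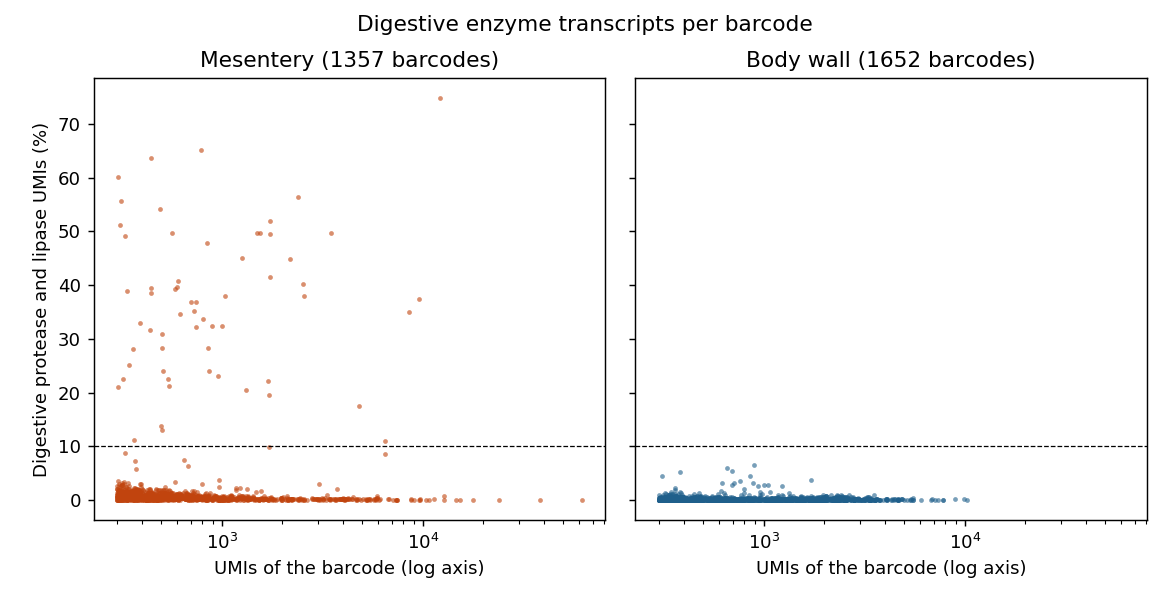
Each point is a kept barcode, with its UMIs on a log x axis and the percent of them from the digestive protease and lipase lists on the y axis. The dashed line is at 10%. In the mesentery 60 barcodes lie at or above it, up to 74.9%, and in the body wall none.

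Single UMIs of these enzymes were spread far more widely than the enzyme-rich barcodes. PA2_URTCR (NVE18269) had a UMI in 56% of mesentery barcodes, and in 36.8% after each barcode was thinned to 300 UMIs. Barcodes under 150 UMIs, too poor to be taken as cells, held it at 8568 CPM, above the 7418 CPM of the kept barcodes. It was also found in 53.1% of the 81 barcodes with a UMI of the muscle light chain MYL9_MOUSE (NVE20160), a share close to that of all mesentery barcodes. Over the protease and lipase lists together the low barcodes held 3.02% of their UMIs in the mesentery library, against 0.199% for low barcodes of the body wall. The share of barcodes with a UMI is therefore not read here as a share of enzyme-making cells.

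The mesentery and the body wall used different models of the same muscle protein families. Muscle-related genes took 0.797% of mesentery UMIs and 0.872% of body wall UMIs, close in sum. Of 32 tested models 6 (18.8%) were mesentery-high and 9 (28.1%) body-wall-high (median log2 -0.50). Over all tested models these shares were 10.2% and 13.3%. The myosin light chains MYL9_MOUSE (NVE20160) and MLC2_DROME (NVE3912), which regulate contraction, had 1974 and 1697 mesentery UMIs (1262 and 1085 CPM) and 0 in the body wall, at least 843-fold and at least 725-fold higher. NvMyophilin-like (NVE17049), of the calponin family of actin-binding proteins, had 302 UMIs against 0. The other 3 mesentery-high models, named here after their values were seen, were the tropomyosin TPM4_MOUSE (NVE1725) with 707 and 0 UMIs in mesentery and body wall, the LIM protein CSRP1_COTJA (NVE7822) with 1023 and 0, and MLC2_DROME (NVE3911) with 70 and 9. These transcripts sat in few barcodes: MYL9_MOUSE (NVE20160) was in 5.97% of mesentery barcodes and 7 of them held at least 50% of its UMIs. MLC2_DROME (NVE3912) had a UMI in 44 of 81 (54.3%, 42.9 to 65.4) barcodes with MYL9_MOUSE (NVE20160), against 7.0% of all mesentery barcodes. In the other direction 44 of 95 (46.3%, 36 to 56.8) barcodes with MLC2_DROME (NVE3912) had MYL9_MOUSE, against 5.97% of all.

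Body-wall-high muscle models were of the same families, and MP20_DROME (NVE7520) lay in far more barcodes than MYL9_MOUSE (NVE20160). The calponin-like MP20_DROME (NVE7520) had 575 mesentery and 3222 body wall UMIs, 4.37-fold (4.0 to 4.79) higher in the body wall, and a UMI in 14.7% and 35% of barcodes (9.06% and 23.9% after thinning to 300 UMIs). Without the 1% of barcodes with the most UMIs its ratio fell to 3.35, below the 4-fold line. MYPH_ECHGR (NVE7522), a myophilin, had 68 and 1654 UMIs, 19-fold (14.9 to 24.6) higher in the body wall, and 13.7-fold without those barcodes. The other 7, named after their values were seen, included the light chains MLC2_DROME (NVE24188) with 76 and 665 UMIs in mesentery and body wall and MLC2_DROME (NVE12983) with 110 and 627, the tropomyosin TPM_ECHMU (NVE26034) with 104 and 547 and TNNC1_PIG (NVE22530), a troponin-C-like calcium sensor, with 35 and 260. Other members were not called in either direction. MYL9_BOVIN (NVE14934) had 310.2 and 876 CPM, the tropomyosin TPM_TRISP (NVE4315) 585 and 556 CPM, and MYPH_ECHGR (NVE7496) 462 and 841 CPM. The 2 myosin heavy chain models tested were likewise called in neither direction.

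Of the actin models described, 1 was mesentery-high and the other near level. ACTB_XENLA (NVE2876), a beta-actin-like model, stood at 8507 CPM in the mesentery and 512 CPM in the body wall, 16.6-fold (15.6 to 17.7). It had a UMI in 63.9% of mesentery and 12.9% of body wall barcodes, and in 50.1% and 7.2% after thinning. At least 50% of its mesentery UMIs lay in 13 barcodes, and low barcodes held it at 4498 CPM. It was detected in 91.4% of the barcodes with MYL9_MOUSE (NVE20160). ACTC_BIOAL (NVE1939) was near equal, with 15035 and 13117 CPM. Reads of like-named actin models could be split between them by the counting, so the value of a single model is uncertain.

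**Figure D3:**
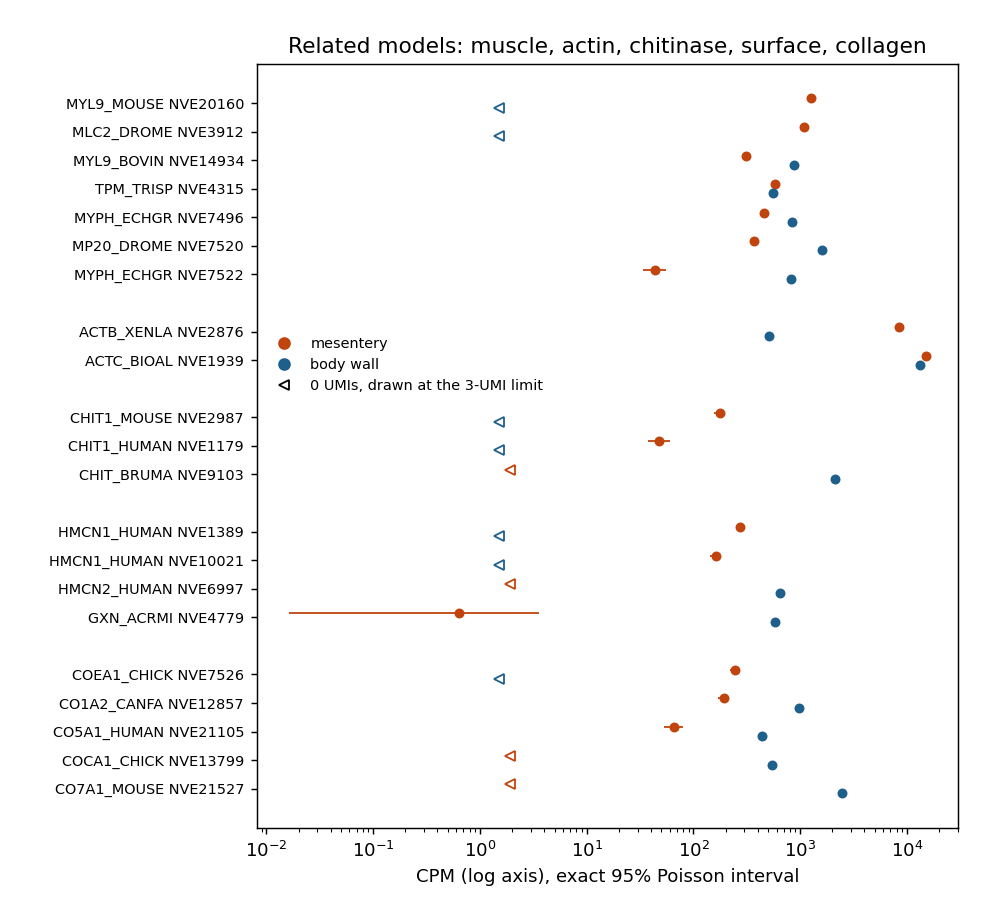
CPM on a log x axis of related models in the mesentery (orange) and the body wall (blue), with exact 95% Poisson intervals, often narrower than the point. Open triangles are 0 UMIs drawn at the 3-UMI limit. In the muscle, chitinase, hemicentin and collagen groups some models are at 0 in 1 tissue and others at 0 or lower in the other, while ACTC_BIOAL and TPM_TRISP are near equal.

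Matrix genes leaned to the body wall in sum, though not in every family. Collagens and other matrix models took 0.204% of mesentery UMIs and 0.716% of body wall UMIs, 3.5-fold more in the body wall (3.37 to 3.64). Of 30 tested models 17 (56.7%) were body-wall-high and 3 (10%) mesentery-high (median log2 -1.74). Over all tested models these shares were 13.3% and 10.2%. Of 22 collagens 13 were body-wall-high and 1 mesentery-high, and the family took 0.113% of mesentery and 0.637% of body wall UMIs. The laminin, nidogen, agrin or perlecan family went the other way, with 0.0524% and 0.0220%, 2.38-fold (2.12 to 2.68). Without PGBM_HUMAN (NVE18733) it took 0.0215% and 0.0184%. The fibulin, fibrillin, tenascin, thrombospondin or SPARC family was 1.73-fold (1.54 to 1.96) higher in the body wall. Integrins stood at 1.03 (0.854 to 1.24). CO7A1_MOUSE (NVE21527), named after the collagen that anchors mammalian epidermis to its underlying tissue, had 4882 body wall UMIs (2436 CPM) and 0 in the mesentery, at least 1269.9-fold higher. It was in 5.15% of body wall barcodes, with at least 50% of its UMIs in 8. The sea urchin fibropellin-like FBP1_STRPU (NVE22591) had 500 UMIs against 0, and 26 of 31 (83.9%, 66.3 to 94.5) barcodes with it also had CO7A1_MOUSE, against 5.15% of all. COCA1_CHICK (NVE13799), a collagen-XII-like model, had 1082 UMIs against 0, at least 50% of them in 3 barcodes, and 1 of its 30 barcodes had CO7A1_MOUSE.

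Fibrillar collagens, the rope-forming collagens of the mesoglea, were lower in the mesentery rather than undetected. CO1A2_CANFA (NVE12857) had 301 mesentery and 1946 body wall UMIs (192 and 971 CPM), 5.05-fold (4.47 to 5.72) higher in the body wall. CO5A1_HUMAN (NVE21105) had 102 and 884, 6.76-fold (5.5 to 8.39). CO1A2_CANFA was spread over 29% of body wall barcodes and 11.3% of mesentery barcodes (19.1% and 6.12% after thinning). Of the matrix models 3 were mesentery-high, and 2 of them were also found in the body wall. COEA1_CHICK (NVE7526), named after collagen XIV, had 380 UMIs against 0, but 1 barcode held 232 of them. PGBM_HUMAN (NVE18733), named after the basement membrane proteoglycan perlecan, had 484 and 73 UMIs, 8.5-fold (6.63 to 11) higher in the mesentery. The third was SPRC_CAEEL (NVE9828), a SPARC-like model with 82 and 20 UMIs, named after its values were seen.

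Several genes with a UMI in many body wall barcodes were at or near 0 in the mesentery. CHIT_BRUMA (NVE9103), a chitinase-like model, had 4240 body wall UMIs (2116 CPM) in 51.9% of barcodes (37.7% after thinning) and 0 in the mesentery, at least 1103-fold higher. Low barcodes of the body wall held it at 2187 CPM. HMCN2_HUMAN (NVE6997), named after hemicentin, a matrix protein of epithelia, had 1284 UMIs against 0. The coral skeleton protein homolog GXN_ACRMI (NVE4779), a galaxin, had 1160 against 1, 905-fold (162 to 35784). TDA6_YEAST (NVE5412) had 1477 against 0, and the glycoprotein-2-like GP2_CANFA models NVE8266 and NVE20813 had 2325 against 4 and 656 against 1, 454-fold (177 to 1666) and 512-fold (91.6 to 20249.7). FAXC_XENTR (NVE8297) had 1709 against 3, 445-fold (152 to 2158), and MFNA_META3 (NVE13841), named after an archaeal tyrosine decarboxylase, 705 against 0. The polyubiquitin model UBIQP_XENLA (NVE12138) was found in both tissues, with 233 and 2427 UMIs and a level 8.13-fold (7.1 to 9.34) higher in the body wall. Leaving aside CHIT_BRUMA and UBIQP_XENLA, the 7 models named here were each in 17.8% to 31.4% of body wall barcodes, and in at most 0.221% of mesentery barcodes. Their levels were 327 to 1160 CPM in the kept body wall barcodes and 368 to 1136 CPM in those under 150 UMIs, so their shares too are not read as shares of cells that make the transcript.

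These genes were found together more often than over all body wall barcodes. Of 445 barcodes with GXN_ACRMI (NVE4779), 71.2% also had HMCN2_HUMAN (NVE6997), against 31.4% of all body wall barcodes, and 83.8% had CHIT_BRUMA (NVE9103), against 51.9%. Of the barcodes with MP20_DROME (NVE7520), 15.9% had HMCN2_HUMAN and 28.4% CHIT_BRUMA, both under the share of all barcodes. CHIT_BRUMA detection thus differed between kinds of barcode, from 28.4% to 88.1% in those with MFNA_META3 (NVE13841). MP20_DROME went instead with COA_ACRMI (NVE21289), a coadhesin-like model named from a coral: 389 of 578 (67.3%, 63.3 to 71.1) barcodes with the first had the second, against 36% of all. COA_ACRMI itself had 388 mesentery and 2764 body wall UMIs, 5.56-fold (5.0 to 6.2) higher in the body wall. The CO7A1_MOUSE (NVE21527) barcodes formed neither set, with HMCN2_HUMAN in 27.1% and MP20_DROME in 28.2% of them, both near the share of all barcodes. Barcodes with more UMIs detect more genes, so a gene's own barcodes tend to be the deeper ones, and how far depth raised these shares was not tested.

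**Figure D4:**
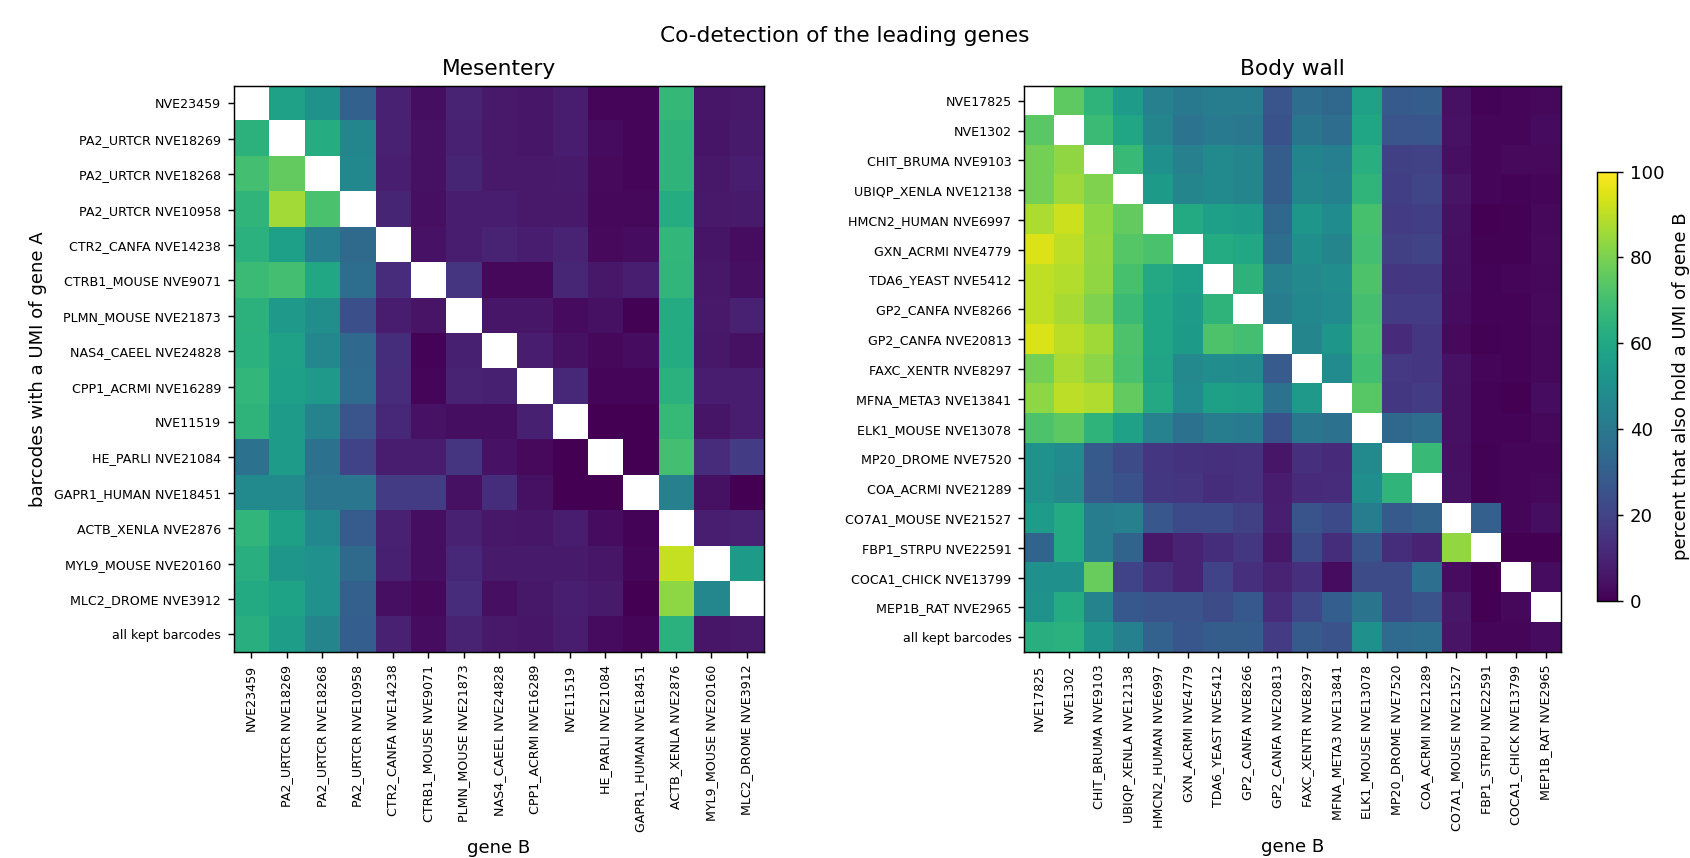
Colour gives the percent of barcodes with a UMI of gene A (rows) that also hold a UMI of gene B (columns), with the share over all kept barcodes in the last row. In the body wall the 11 upper genes are found together and MP20_DROME pairs with COA_ACRMI. In the mesentery most rows resemble the last row. Exceptions include the PA2_URTCR models among themselves and MYL9_MOUSE with MLC2_DROME. ACTB_XENLA is also higher in the rows of both light chains, and NVE23459 lower in the HE_PARLI row.

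The chitinases and the hemicentins split by tissue as the muscle genes did. Of the 4 chitinase models tested, CHIT1_MOUSE (NVE2987), CHIT1_HUMAN (NVE1179) and CHIT1_HUMAN (NVE8075) had 275, 75 and 52 mesentery UMIs and 0 in the body wall, where the fourth, CHIT_BRUMA, was found. One barcode held 202 of the 275 UMIs of CHIT1_MOUSE. Of 17 hemicentin, galaxin and coral skeleton matrix homologs tested, 10 (58.8%) were body-wall-high and 4 (23.5%) mesentery-high (median log2 -1.74). Over all tested models these shares were 13.3% and 10.2%. HMCN1_HUMAN (NVE1389) and HMCN1_HUMAN (NVE10021) had 430 and 253 mesentery UMIs against 0 in the body wall, the first in 1.62% and the second in 11.9% of mesentery barcodes. Galaxin (NVE2195) had 70 and 1265 UMIs, 14.1-fold (11.1 to 18.2) higher in the body wall. The coral skeletal organic matrix homolog USOM7_ACRMI (NVE10146) had 60 and 695, 9.04-fold (6.94 to 12).

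Unnamed models carried part of each difference. NVE23459 had 11488 mesentery UMIs in 63% of barcodes and 1 body wall UMI, 14722-fold (2642 to 581525). At least 50% of its UMIs lay in 7 barcodes, and low barcodes held it at 10079 CPM against 7347 CPM in the kept ones, the pattern of the phospholipases. NVE11519 had 1723 against 0. In the body wall NVE17825 had 14867 UMIs in 63.1% of barcodes against 8 in the mesentery, 1450.2-fold (736 to 3359.6), and NVE1302 had 10825 in 63.7% against 7, 1207-fold (585 to 3002). The UMIs of these 2 were spread, and 126 and 121 barcodes were needed to reach 50% of them. Low barcodes of the body wall held NVE17825 at 7376 CPM, near the 7419 CPM of the kept ones. Of 445 barcodes with GXN_ACRMI (NVE4779), 94.6% held NVE17825, so it was found with the genes of the GXN_ACRMI barcodes.

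Regulators divided in both directions, at low counts. Of 22 transcription factors tested, 5 (22.7%) were mesentery-high and 7 (31.8%) body-wall-high (median log2 -0.40). Over all tested models these shares were 10.2% and 13.3%. The list took 0.153% of mesentery UMIs and 0.140% of body wall UMIs. NvFoxA (NVE20630), a forkhead factor of the anemone pharynx and endoderm, had 284 and 9 UMIs, 40.4-fold (21 to 89.3) higher in the mesentery. PITX1 (NVE8119), a homeobox factor, had 116 against 0, and 50% of its UMIs lay in the 1% of barcodes with the most UMIs. The homeobox factor named Nk2 protein (NVE24920) had 5 and 259 UMIs, 40.4-fold (17.1 to 126) higher in the body wall, and FOXO_CAEEL (NVE17475) 0 and 139. NvPaxD2 (NVE5331) had 0 and 59. The ETS factor ELK1_MOUSE (NVE13078) was broader, with 295 and 2508 UMIs, 6.63-fold (5.88 to 7.51) higher in the body wall and in 50.2% of its barcodes. SoxE1 had 201 CPM in the mesentery and 65.9 CPM in the body wall, 3.06-fold (2.49 to 3.78), and was not called.

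Signalling genes leaned to the body wall, with 5 of 10 tested models (50%) higher there and 1 (10%) in the mesentery (median log2 -1.42). The shares over all tested models were 13.3% and 10.2%. NvAdmp-related (NVE5480), a ligand of the bone morphogenetic protein family, had 12 and 391 UMIs, 25.4-fold (14.4 to 49.6) higher in the body wall, and 8 of its 12 mesentery UMIs lay in 1 barcode. SFRP (NVE8371), a secreted Wnt antagonist, had 25 and 147, 4.59-fold (2.99 to 7.32), and 3.91-fold, under the line, without the 1% of barcodes with the most UMIs. NOTC2_MOUSE (NVE2053), a Notch-like receptor, had 76 mesentery UMIs and 1 in the body wall, 97.4-fold (17 to 3897). FGFR1_RAT (NVE6310), a growth factor receptor, and FZD2_MOUSE (NVE13710), a Wnt receptor, stood at 77.4 and 28.8 CPM in the mesentery and 271 and 50.9 CPM in the body wall and were not called.

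Transport and detoxification genes showed body wall models as well. Of 17 solute carriers tested, 5 (29.4%) were body-wall-high and 0 mesentery-high, against 13.3% and 10.2% of all tested models. The organic anion transporter SO4C1_MOUSE (NVE4324) had 6 and 443 UMIs, 57.6-fold (26.3 to 158) higher in the body wall, and S6A13_RAT (NVE7999), a GABA transporter in mammals, 0 and 89. Of 11 cytochrome P450 models 5 (45.5%) were body-wall-high, among them CP27A_HUMAN (NVE21774) with 11 and 104 UMIs, and 0 mesentery-high. In sum the family took 0.100% of mesentery UMIs and 0.0921% of body wall UMIs, a ratio of 1.09 (1.02 to 1.17). Glutathione transferases went both ways: GST5_CAEEL (NVE13945) was 13.5-fold (10.5 to 17.5) higher in the body wall and GSTM3_HUMAN (NVE20507) 4.59-fold (3.79 to 5.59) higher in the mesentery. The lysosomal list leaned the other way, with 5 of 17 models (29.4%) mesentery-high and 0 body-wall-high (median log2 0.30). SAP3_MOUSE (NVE17198), named after the ganglioside activator, had 382 UMIs against 0, and SAP_BOVIN (NVE891), a saposin-like model, 196 against 1, 251-fold (44.6 to 9971). The cathepsins CATF_HUMAN (NVE20113) and CATL_DROME (NVE8852) were not called, at 302 and 243 CPM in the mesentery and 391 and 196 CPM in the body wall.

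The germline markers, looked at because the mesentery bears the gonads, held 487 mesentery and 205 body wall UMIs, 3.04-fold (2.58 to 3.6) higher in the mesentery as a share of all UMIs. Only Nvnos2/Nanos2 (NVE16405), an RNA-binding regulator of germ and stem cells, passed 50 UMIs, with 216 and 41, 6.75-fold (4.82 to 9.67). Without it, an alternative chosen after the data were seen, the ratio of the list fell to 2.12 (1.74 to 2.59). The other members went both ways, at few UMIs. Some were near level or lower in the mesentery: the helicase Nvvas2 (NVE6251) had 23 and 28 UMIs in mesentery and body wall, the tudor protein TDRD1_HUMAN (NVE19311) 24 and 29, TDRD5_HUMAN (NVE15391) 6 and 9, TDRD1_MOUSE (NVE6381) 2 and 5, and Nvnos1/Nanos1 (NVE13963) 3 and 12. Others were higher there, among them PIWL1_DANRE (NVE10757) with 27 and 14, BOLL_MACFA (NVE13498) with 12 and 0 and TDRD9_HUMAN (NVE17126) with 9 and 1. The 14 mesentery barcodes with the most UMIs held 164 of the germline UMIs (33.7%) and 16.7% of all UMIs, or 628 CPM against 248 CPM in the rest. BOLL_MACFA (NVE15333), named after a germ-cell RNA-binding protein, had 33 of its 47 mesentery UMIs in them and 0 in the body wall. PIWI1 (NVE242), which guards germ cells against transposons, had 27 of 49, and 15 UMIs in the body wall. The replication list shared the pattern, with 33.4% of its mesentery UMIs in those barcodes. Without these barcodes the ratio of PIWI1 fell from 4.19 to 2.12. The deepest, with 61577 UMIs over 5266 genes, held 17 germline UMIs, 276 CPM, below the 311 CPM of the library. Whether such deep barcodes hold single cells or several was not tested.

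Of the smaller lists, some cilia genes were higher in the mesentery. Of 7 ciliary models tested 2 (28.6%) were mesentery-high and 0 body-wall-high, against 10.2% and 13.3% of all tested models. They were RSPH1_MOUSE (NVE13866), a radial spoke protein of the moving axoneme, with 113 UMIs and 1 in the body wall, 145-fold (25.5 to 5769.6), and RSPH9_BOVIN (NVE14095) with 60 and 14, 5.49-fold (3.03 to 10.6). The neuronal list took 0.153% of mesentery UMIs and 0.226% of body wall UMIs. Of its 19 tested models 1 was mesentery-high, the glutamate-receptor-like GRM4_MOUSE (NVE18492) with 102 and 24 UMIs, and 2 body-wall-high, the acetylcholine-receptor-like ACH2_CAEEL (NVE13969) with 19 and 455 and the synaptotagmin SYT11_HUMAN (NVE18808) with 1 and 54, shares of 5.26% and 10.5% against 10.2% and 13.3% of all tested models. The lectin CSL3_ONCKE (NVE7724) had 0 mesentery and 324 body wall UMIs, and LECG_PATPE (NVE8274) 63 and 0, in 4 barcodes. Markers of stinging cells took 0.0583% of mesentery UMIs and 0.0355% of body wall UMIs. Their minicollagen Ncol3 (NVE9976) had 765 and 581 UMIs and DKK3_MOUSE (NVE142) 114 and 113, neither of them called. Of 6 immune models tested none was called, too few to read against the 23.5% of all models called in either direction. IRF2_HUMAN (NVE12489), named after an interferon regulatory factor, stood 2.54-fold (1.78 to 3.65) higher in the mesentery with 66% of its mesentery UMIs in the 1% of barcodes with the most UMIs, and at 0.976 without those barcodes.

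The genes of general cell function set the level part of the comparison. None of 90 ribosomal protein models, 52 respiratory chain models or 12 nutrient store models was called in either direction, and their median log2 ratios were -0.01, 0.05 and -0.08. Over all tested models 23.5% were called in either direction. Ferritin, which stores iron, was among the near-equal genes with the most UMIs, FRIS_LYMST (NVE15943) standing at 16679 CPM in the mesentery and 18406 CPM in the body wall. CEBPG_RAT (NVE23143) and TCTP_BRABE (NVE13346) were also near equal, at 1.01-fold (0.997 to 1.03) and 0.948-fold (0.926 to 0.971) in the mesentery. Below the 4-fold line the sterol carrier NPC2_PANTR (NVE18456) stood at 5909 and 3333 CPM, 1.77-fold (1.72 to 1.83) higher in the mesentery. Genes of the dissociation response were not level in full. The early response factor FOSX_MSVFR (NVE23145), named after the viral Fos protein, stood at 2719.8 CPM in the mesentery and 8190.1 CPM in the body wall, 3.01-fold (2.91 to 3.12) higher in the body wall, while c-jun (NVE21090) had 1680.0 and 1676 CPM and the heat shock proteins took 0.92% of mesentery UMIs and 0.678% of body wall UMIs. The part of dissociation in the differences above was not tested.

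**Figure D5:**
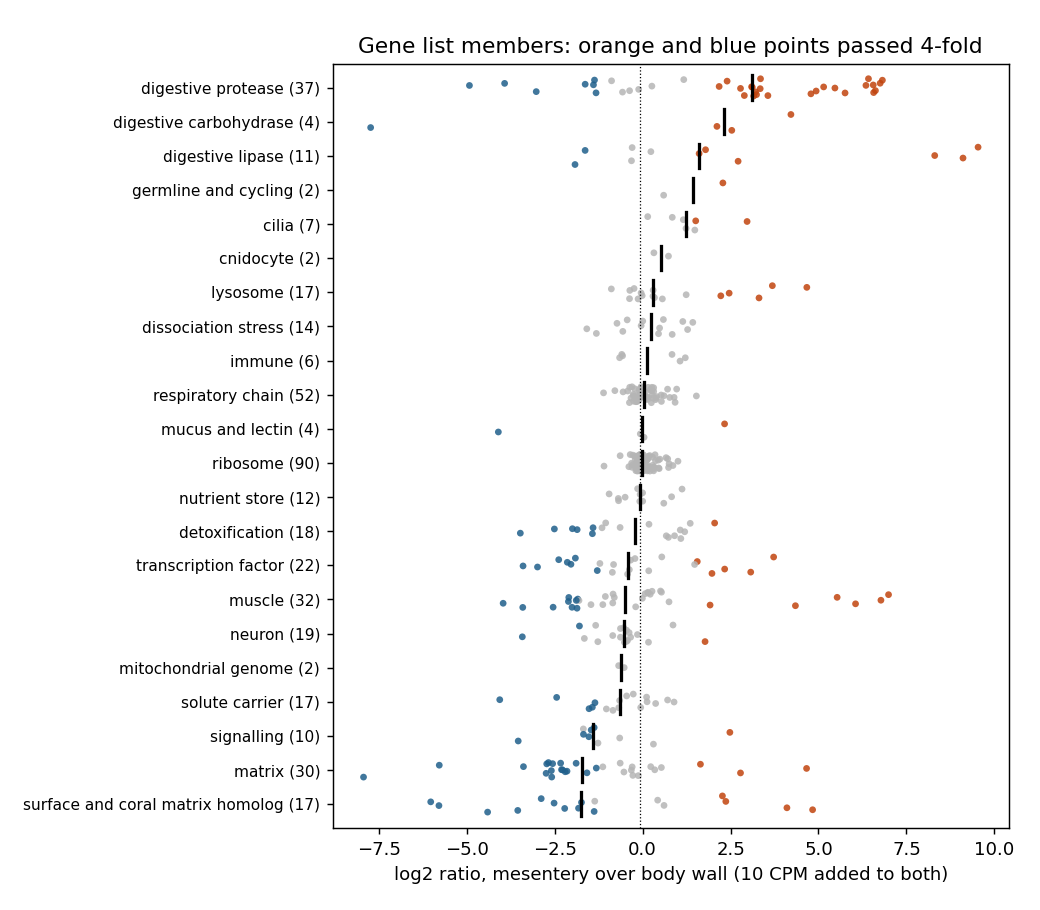
Each point is a tested member of a gene list, placed by its log2 ratio of mesentery over body wall with 10 CPM added to both, with the number tested in brackets, and the black bars are list medians. The dotted line at -0.06 is the median of all tested models. Points right of it lean to the mesentery: the digestive protease list has its median at 3.12 and the matrix list at -1.74, while ribosome and respiratory chain points cluster at the dotted line.

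Tentacle and pharynx values place the named differences. The mesentery-high light chain MYL9_MOUSE (NVE20160) was also found in the tentacle and the pharynx, at 2383 and 862 CPM, so the body wall was the 1 library in which it was at 0. ACTB_XENLA (NVE2876) likewise stood at 10259.6 CPM in the tentacle and 4053 CPM in the pharynx. PA2_URTCR (NVE18269) and NvFoxA (NVE20630) were found in the pharynx as well, at 1508 and 322 CPM, whereas HE_PARLI (NVE21084) had 0 UMIs in the tentacle and 1 in the pharynx. Of the body wall genes, CHIT_BRUMA (NVE9103) and HMCN2_HUMAN (NVE6997) had 0 UMIs in both other libraries and CO7A1_MOUSE (NVE21527) had 1 in the tentacle and 0 in the pharynx. MP20_DROME (NVE7520) reached 651 CPM in the pharynx and 93.3 CPM in the tentacle, below the body wall in both.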

How the data were processed

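Single-cell RNA-seq of dissected tissues was analysed from the authors' deposited count matrices (UMI counts per gene model and barcode, 25734 models, 7000 barcodes each). The submitters' processing notes name Cell Ranger 2.1.0; the build used was not given in the sources used here. No gene identifier matched the reference gene table, and no positions or sequences are printed. Barcodes with at least 300 UMIs were kept, UMIs summed per tissue and divided by the total. A call needed 50 UMIs or more in the tissue of higher level and a CPM at least 4 times the other's. Models whose names matched toxin name patterns (27, of which 12 passed 50 UMIs) were left out. The patterns did not cover phospholipase A2 names. No test was run, as each tissue has 1 library. The members and the 22 gene lists were chosen with earlier results of these data known. List patterns match the deposited names and were not checked by sequence.

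Named genes were, per direction, the 12 with the largest lower limit of the ratio interval, the 6 with the most UMIs, 2 unnamed models, models whose name starts with Nv, and, per list, the 4 with the most UMIs and 2 called each way, beside 5 near-equal genes and those next to the threshold. Free RNA was viewed in barcodes under 150 UMIs, a limit chosen after the data were seen. The calling was checked on simulated Poisson sums. These lack the uneven spread of UMIs over barcodes described above, so the check does not cover it. Alternatives were other barcode and gene minimums, thinning, scalings (median of ratios, edgeR 4.0.16 TMM) and folds. Python 3.11.15, numpy 2.4.6, scipy 1.17.1 and pandas 2.3.3 were used.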

Additional observations from a re-analysis of the deposited data

How the results depend on the processing

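The counts of mesentery-high and body-wall-high genes, 327 and 425, stayed within 1.5 times under other barcode minimums, scalings and the mean of fractions over cells. They moved further where the rule or the depth changed. Thinning each barcode to 300 UMIs left 123 and 201, with fewer UMIs per gene by construction. A minimum of 20 UMIs gave 640 and 706, a minimum of 100 gave 211 and 270, and no minimum gave 1459 and 1014. A ratio of at least 2 gave 618 and 709, and a ratio of at least 8 left 274 body-wall-high genes. Without the 1% of barcodes with the most UMIs, 286 of the 327 and 403 of the 425 were still called. Under every setting of barcodes, weighting and scaling, thinning included, 104 and 179 were. Leaving out the barcode with the most UMIs in each library and keeping toxin-named models, both chosen after the data were seen, gave 320 and 423 and 330 and 430. TMM scaling moved all log2 ratios by -0.15, toward the body wall.

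Called named genes changed direction under none of the settings tried. Some list ratios of mesentery over body wall crossed 1, and the cause was not tested. Carbohydrases went to 6.54 without CHIT_BRUMA, muscle to 1.07 without MP20_DROME and 1.09 without the deepest 1% of barcodes, stress to 1.22 without FOSX_MSVFR, lipases to 0.951 without PA2_URTCR models, detoxification to 0.963 without HPGDS_CHICK and transcription factors to 0.997 without SoxE1 and 0.986 by TMM. The lectin list went to 1.06 on thinning. The immune list went to 0.981 over all barcodes, 0.955 without the deepest 1%, 0.854 by mean fractions and 0.838 on thinning. The ribosome list went to 0.999 without the deepest 1%, 0.989 by median of ratios and 0.919 by TMM. No paired analysis was possible because each tissue has 1 library. Depth limits genes under 50 UMIs, and a count of 0 allows up to 1.92 CPM in the mesentery and 1.50 CPM in the body wall.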
